A study of Mus musculus with 18 samples.

Results

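The erbB2-positive fraction of a 1:50 co-culture of mouse mammary cells was compared with the erbB2-negative fraction of a 1:1 co-culture. The samples were chosen by sample title and make up 6 of the 18 arrays of the study, 3 a fraction. The comparison is a diagonal of the design: the fractions differ both in erbB2 label and in mixing ratio, while co-culture medium and sorting procedure are shared. Values are log2 array signals, and a difference of 1 is a doubling. In the text below a difference is always the 1:50 positive fraction minus the 1:1 negative fraction.

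Comma-D is a line of normal mouse mammary epithelial cells. MMTV-neu cells come from mammary tumours of mice in which the mouse mammary tumour virus promoter drives the neu (erbB2) oncogene. All co-cultures of these lines grew in the Comma-D medium, DMEM/F12 with 2% serum, insulin at 10 ug/ml and EGF at 5 ng/ml, so that growth factor ligand was present in both fractions. The cells were then bound by an anti-erbB2 antibody, a biotinylated secondary antibody and anti-biotin beads, and a magnetic column gave a bound fraction and a depleted one. The labels call the 1:1 negative fraction normal, without erbB2 and without phosphorylated erbB2. They call the 1:50 positive fraction redirected, with erbB2 but without its phosphorylated form. The 4 other groups, used here only as reference points, are unmixed Comma-D (normal), unmixed MMTV-neu (cancer, both erbB2 forms present, grown in DMEM with 10% serum), the 1:50 negative fraction (normal) and the 1:1 positive fraction (cancer, both erbB2 forms present). The titles do not say which line was the larger part at 1:50, and the labels give no age, sex or source animal.

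ErbB2 is a receptor tyrosine kinase with no known ligand of its own, and it signals mainly as a partner of EGFR, ErbB3 or ErbB4. ErbB3 has little kinase activity and, once phosphorylated by erbB2, is a strong docking site for phosphoinositide 3-kinase. The mammary gland has an inner luminal layer, marked by keratins 8 and 18 and tight junction proteins, and an outer basal layer, marked by keratins 5 and 14 and hemidesmosomal integrins. Luminal progenitors express the receptor Kit, the transcription factor Ehf and the surface protein Cd14.

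Markers of both mammary epithelial layers were measured in either fraction. Of 33 basal markers 32 lay above the median probe set (6.09) in each fraction, and of 31 luminal markers 27 did. Of 27 mesenchymal genes 25 did so, and of 17 fibroblast markers 10, again in each fraction. Of 22 leukocyte markers 3 did so in each, of 16 endothelial markers 6 in the 1:50 positive and 7 in the 1:1 negative fraction, and of 13 adipocyte markers 4 and 6. Probe sets differ in how strongly they respond, so these counts are a rough description and do not rank cell types. The summed level of the leukocyte list, as a mean over its members, ran from 5.43 to 5.59 in the 1:50 positive and from 5.42 to 5.70 in the 1:1 negative arrays. Of these other cell types, the leukocyte list had 1 called member of 22, Cd14, which is also a luminal progenitor marker. The adipocyte list had 1 of 13, the lipase Pnpla2. The endothelial and fibroblast lists had 0 of 16 and 0 of 17 by limma, with 1 and 0 at an unadjusted p under 0.05. With pairing 0 were called in both. Over all genes limma called 1.5% unpaired and 7.52% with pairing.

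The arrays did not spread evenly. Replicate 1 of the 1:1 negative fraction stood apart: its values had a standard deviation of 1.75, against 1.88 and 1.91 in the other two, and its root mean square deviation from the group mean was 0.303, against 0.125 and 0.22. Arrays with the same replicate number deviated together in the 2 fractions, and for that reason a fit paired by number is given beside the unpaired one. The labels do not say whether replicates were separate cultures, so the spread behind the p-values may be technical. In the fit of 18 arrays this spread is pooled over all 6 groups and is not that of the 2 fractions alone. The same deviation was 0.122 to 0.202 in the 1:50 positive arrays. It was 0.0825 to 0.0943 in Comma-D, 0.099 to 0.134 in the 1:50 negative, 0.117 to 0.192 in the 1:1 positive and 0.174 to 0.215 in the MMTV-neu arrays.

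The profile of the 1:50 positive fraction lay nearer to Comma-D than that of the 1:1 negative fraction on average, though single arrays overlapped. Against the Comma-D mean, the root mean square difference over 19938 genes was 0.31 in the 1:50 positive and 0.456 in the 1:1 negative fraction, and 0.248 between the 2 fractions. By array it was 0.451, 0.269 and 0.309 in the 1:50 positive and 0.707, 0.4 and 0.344 in the 1:1 negative fraction, with replicate 1 the farthest in both. At least 2-fold from Comma-D were 202 and 560 genes. By limma, 1139 genes (5.71%) differed from Comma-D in the 1:50 positive fraction and 7121 (35.7%) in the 1:1 negative fraction, so the fraction without the erbB2 label had the larger count. Centring the arrays on reference genes gave 227 and 9587 genes and quantile normalization 380 and 2349, in the same order. The counts share the Comma-D arrays, and their difference has no test of its own.

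Each array was then placed between the unmixed lines, with Comma-D at 0% and MMTV-neu at 100%. This used 1641 genes at least 2 log2 units apart in the lines, which were chosen without the arrays compared. Of these genes 1561 were lower and 80 higher in MMTV-neu. The 1:1 negative arrays lay at 42.2%, 19.3% and 16.6% (mean 26 ± 14, SD, n = 3) and the 1:50 positive arrays at 23%, 7.2% and 12.7% (mean 14.3 ± 8.04, SD, n = 3). The groups overlap, because replicate 1 of the 1:50 positive fraction lies above the lower pair of the 1:1 negative arrays. In each replicate number the 1:50 positive array lay lower, by 19.1, 12.1 and 3.9 points. The mean difference was -11.7 points, with a two-sided exact permutation p of 0.3 over arrays, where 0.1 is the smallest possible, and a sign-flip exact p of 0.25 over pairs, the smallest possible. Without replicate 1 of the 1:1 negative fraction it was -3.64 points. Over only the genes higher in MMTV-neu it was -20.9 points, and over only those lower -11.4. MMTV-neu arrays had a lower SD of all values (1.51 to 1.55) than Comma-D arrays (1.97 to 1.99). Among the 6 arrays compared, positions rose as this SD fell, from 7.2% at 1.96 to 42.2% at 1.75. The part of array spread in the position was not tested. For scale, the 1:50 negative fraction lay at 3.27 ± 0.977% and the 1:1 positive fraction at 69.4 ± 10% (SD, n = 3 each). In bulk RNA, fewer cells of a type and less RNA per cell cannot be told apart, and this position moved with the differences described below: its part in them was not tested.

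**Figure D1:**
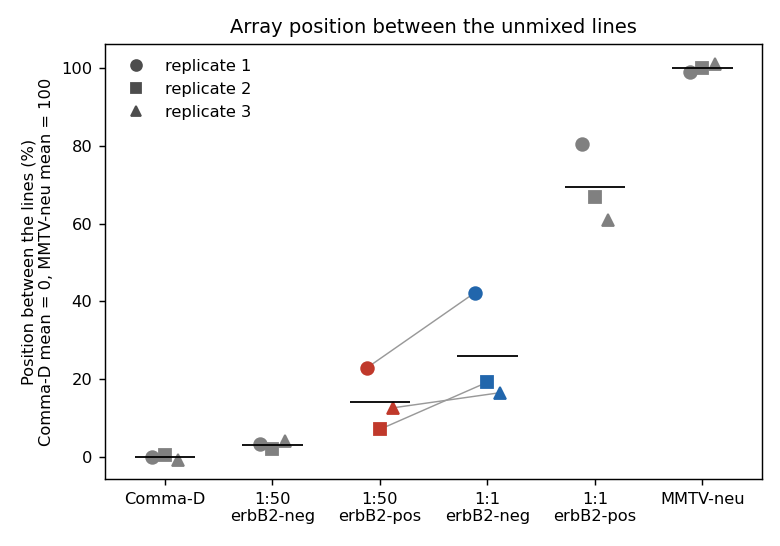
Position of each array between Comma-D (0%) and MMTV-neu (100%) over 1641 genes, with replicates as symbols, group means as bars and thin lines joining the same replicate number of the 2 fractions compared (red, 1:50 erbB2-positive; blue, 1:1 erbB2-negative). Each thin line goes up from the 1:50 positive to the 1:1 negative fraction, and the highest 1:1 negative array is replicate 1 at 42.2%.

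The genes called higher in the 1:50 positive fraction included 6 of 31 luminal and 6 of 31 junction genes, with Cldn4 in both lists. Also called higher were the receptor gene Erbb3 and the small nucleolar RNA gene Snora20. Those called lower included histone H4c3 and ribosomal protein Rps14. In the fit of 18 arrays, limma called 300 genes (1.5% of those tested) at an adjusted p under 0.05, of which 277 (1.39%) were higher and 23 (0.115%) lower. At least 2-fold were 63 of the higher (0.316%) and 0 of the lower. The arrays of the groups did not overlap for 2650 genes (13.3%). Pairing by replicate number raised the count to 1499 (7.52%; 1251 higher, 6.27%, and 248 lower, 1.24%), and 298 of the 300 were among them. A paired fit of the 12 co-culture arrays called 604 (3.03%; 518 higher, 2.6%, and 86 lower, 0.431%). An unpaired fit of the 6 arrays, which takes the spread from these arrays alone, called 0 genes by limma, with 1523 at an unadjusted p under 0.05.

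These counts rest on few arrays. Without replicate 1, 2 or 3 of the 1:1 negative fraction limma called 87, 175 or 395 genes. Without replicate 1, 2 or 3 of the 1:50 positive fraction it called 900, 36 or 59. Centring on 7 reference genes, which lay 0.2 higher in the 1:50 positive fraction, moved the median difference of all genes from -0.04 to -0.24 and left 43 calls, and quantile normalization left 86. Of 58 named genes with a call, 10 kept it under both scalings, in each leave-one-out fit and in every other alternative in which they were tested except the unpaired fit of 6 arrays: Ehf, Slc5a8, Rnu3a, Ceacam1, Plet1, Kit, Cldn1, Erbb3, Snora20 and Snora69. Every other named call was lost in at least 1 further alternative, so each is to be read with that limit. Fits that left out a replicate number in both groups are not part of this count. Leaving out number 2 of both groups left 15 calls over all genes.

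The difference also varied with the level of a gene. In 4 equal sets of genes ordered by their Comma-D level, from low to high, the median difference was -0.07, -0.13, 0.04 and 0.21, and 167 of the 277 higher calls fell in the top set. That gradient was steepest in replicate number 1, where the top set had a median of 0.364, against 0.225 and 0.0456 in numbers 2 and 3. Its part in the gene calls was not tested.

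Among luminal genes, 6 of 31 members were called higher and 0 lower, beside 1.39% and 0.115% of all genes. Their median difference was 0.12, beside -0.04 over all genes. The paired fit called 8 higher and 3 lower, beside 6.27% and 1.24% of all genes, so the list went both ways. Ehf, an ETS factor of luminal and other glandular epithelia, had values of 9.74, 10.00 and 10.05 in the 1:50 positive arrays and 7.30, 7.76 and 8.26 in the 1:1 negative arrays. The groups lie far apart, and the 1:50 positive values sit near the Comma-D mean of 10.27, the 1:1 negative values near the MMTV-neu mean of 7.52. The difference of 2.15 (SE 0.22), 4.45-fold, had a limma adjusted p of 0.000233, and 0.00724 when paired.

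Kit, the stem cell factor receptor, measured 8.51, 8.76 and 7.64 in the 1:50 positive and 6.33, 6.86 and 6.55 in the 1:1 negative fraction. Replicate 3 is the lowest of the 1:50 positive arrays and still above all 1:1 negative arrays, and the difference was 1.72 (SE 0.25; limma adjusted p 0.00365). Cd14, a lipopolysaccharide co-receptor, measured 7.70, 7.98 and 7.66 against 6.10, 6.80 and 6.84, a difference of 1.20 (SE 0.19, limma adjusted p 0.00578). Some other members of the luminal list showed little difference. Elf5, Aldh1a3, Prom1 and Krt19 differed by 0.06, -0.05, -0.10 and -0.07 (limma adjusted p 0.804, 0.857, 0.707 and 0.844). Gabrp, a GABA-A receptor subunit of secretory epithelia, measured 8.78, 8.53 and 7.30 against 6.40, 6.66 and 6.38. Its groups do not overlap either, and its difference was 1.72 (SE 0.34; limma adjusted p 0.0194). The secreted protein Wfdc2 rose by 1.42 (SE 0.32, limma adjusted p 0.0353). Gabrp and Wfdc2 are outside the luminal list, whose called members also include Cldn4, described below. Keratins Krt7 and Krt18 rose by 0.69 and 0.43 (limma adjusted p 0.0131 and 0.0444).

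Krt8, the type II keratin that pairs with Krt18, did not share their direction. It measured 10.76, 10.15 and 10.19 in the 1:50 positive and 11.12, 10.70 and 10.46 in the 1:1 negative fraction, a difference of -0.39 (SE 0.19; limma adjusted p 0.401 unpaired and 0.0466 paired). The groups overlap, and both means lie nearer to MMTV-neu (11.34) than to Comma-D (7.41). Against Comma-D, Krt8 was higher by 2.96 in the 1:50 positive and by 3.35 in the 1:1 negative fraction (limma adjusted p 5.05e-08 and 1.19e-08). The other luminal members lower in the paired fit were the hormone-axis factors Foxa1 (-0.51; limma adjusted p 0.306 unpaired, 0.018 paired) and Esr1 (-0.46; 0.322 and 0.0387).

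**Figure D2:**
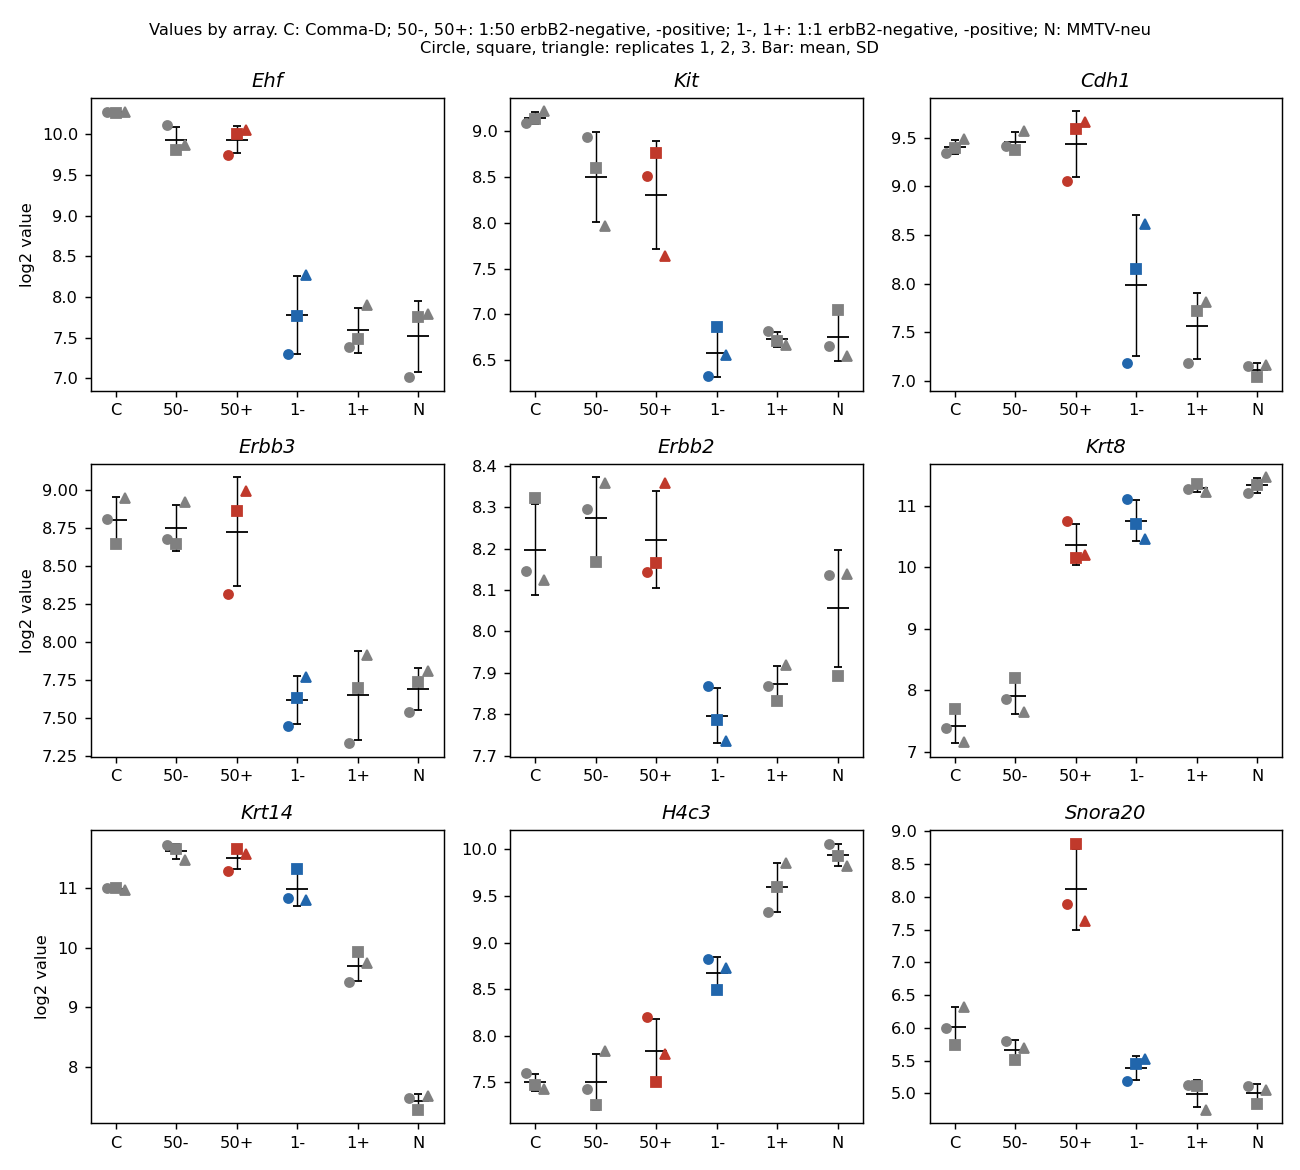
Log2 values of 9 genes in every array of the 6 groups, with replicates as symbols and mean and SD as bars (n = 3). For Ehf, Kit and Erbb3 the red 1:50 positive values all stand above the blue 1:1 negative values, Krt8 is above the Comma-D values in both fractions, and Snora20 is highest in the 1:50 positive fraction of all groups.

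Cell junction genes had 6 of 31 members called higher and 0 lower, as many as the luminal list, beside 1.39% and 0.115% of all genes. Their median difference was 0.51. Paired by number, 18 of 31 were called higher and 0 lower, beside 6.27% and 1.24% of all genes. E-cadherin, Cdh1, the adhesion receptor of adherens junctions, measured 9.05, 9.60 and 9.67 in the 1:50 positive fraction and 7.19, 8.15 and 8.61 in the 1:1 negative fraction. The 3 values of each group vary, with replicate 1 lowest in both, but do not overlap, and the difference of 1.46 (SE 0.26) had a limma adjusted p of 0.011. In the 1:50 positive fraction Cdh1 was 0.03 above Comma-D (limma adjusted p 0.962), and in the 1:1 negative fraction 1.43 below it (limma adjusted p 0.0011).

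Claudin 1, Cldn1, a barrier-forming tight junction protein, measured 7.37, 7.28 and 6.91 against 5.76, 5.65 and 6.00, a difference of 1.39 (SE 0.19; limma adjusted p 0.00244). Its values are far apart, and on the deposited scale the 1:1 negative arrays lie at or below the MMTV-neu mean of 6.07. With centring MMTV-neu differed from Comma-D by -0.29 (limma adjusted p 0.277) and the 1:1 negative fraction by -1.27 (0.00322). Quantile normalization made these -1.75 and -1.54, so the closeness to MMTV-neu depends on the scaling. Also called were Cldn4 (0.63), the tight junction protein Marveld3 (0.42), the desmosomal cadherin Dsg2 (0.87) and beta-catenin, Ctnnb1 (0.91), with limma adjusted p-values of 0.0214, 0.0267, 0.012 and 0.0409. The desmosomal cadherin Dsg3 (1.63; limma adjusted p 0.0553 unpaired, 0.0123 paired), the adhesion molecule Epcam (1.38; 0.0964 and 0.0194), plakoglobin, Jup (0.89; 0.0532 and 0.00997), and desmoplakin, Dsp (0.91; 0.0774 and 0.0109), passed only with pairing. The splicing factors Esrp1 and Esrp2, which maintain epithelial isoforms, had differences of 0.63 and 0.62 and were called only with pairing (limma adjusted p 0.0231 and 0.0153).

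The membrane-bound protease inhibitors Spint1 and Spint2, which restrain matriptase at the epithelial surface, were the only called members of the list of 33 proteases and inhibitors in the unpaired fit. Spint2 measured 9.35, 9.78 and 9.67 against 7.82, 8.64 and 8.79. Its groups do not overlap, and its difference was 1.18 (SE 0.20; limma adjusted p 0.0095). Spint1 rose by 0.95 (SE 0.17; limma adjusted p 0.012). Pairing called 11 of the 33 higher and 0 lower, beside 6.27% and 1.24% of all genes. Ceacam1, an adhesion molecule of the apical surface, measured 8.35, 8.79 and 8.10 against 6.24, 6.83 and 6.93, a difference of 1.75 (SE 0.19; limma adjusted p 0.000251). The cell surface protein Plet1 measured 8.73, 9.10 and 9.67 against 7.24, 7.41 and 7.66, 1.73 apart (SE 0.20; limma adjusted p 0.000414).

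Junction proteins and epithelial keratins are often under the control of repressors of the Snail and Zeb families, which bind an E-box of the letters CACCTG, and promoters of called genes were therefore read for these letters. Windows of 300 bases, from 250 before to 50 after the gene's start, came from RefSeq (GRCm38.p6) and were found for 15614 of the genes tested, including 194 called higher and 22 called lower. No window was available for Ehf, Cdh1 or Erbb3, so their promoters were not read. On either strand, CACCTG stood in 54 of the 194 (27.8%), in 2 of the 22 (9.09%) and in 3002 of all 15614 (19.2%). Shown are 3 windows with matches among the genes described here, the strand of the gene read from 5′ to 3′, with CACCTG or its reverse complement CAGGTG in capitals.
Cldn4: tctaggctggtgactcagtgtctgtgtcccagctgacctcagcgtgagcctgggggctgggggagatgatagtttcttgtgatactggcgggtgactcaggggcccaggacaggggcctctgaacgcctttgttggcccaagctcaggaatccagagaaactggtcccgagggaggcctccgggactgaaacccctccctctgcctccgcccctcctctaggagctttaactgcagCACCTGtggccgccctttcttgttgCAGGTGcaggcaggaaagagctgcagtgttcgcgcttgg
Spint2: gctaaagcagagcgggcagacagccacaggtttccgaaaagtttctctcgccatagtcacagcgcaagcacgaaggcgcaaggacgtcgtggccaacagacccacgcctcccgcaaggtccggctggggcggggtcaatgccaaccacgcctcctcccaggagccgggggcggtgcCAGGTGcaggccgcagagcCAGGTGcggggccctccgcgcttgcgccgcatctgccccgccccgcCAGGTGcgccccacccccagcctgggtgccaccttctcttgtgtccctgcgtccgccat
Krt18: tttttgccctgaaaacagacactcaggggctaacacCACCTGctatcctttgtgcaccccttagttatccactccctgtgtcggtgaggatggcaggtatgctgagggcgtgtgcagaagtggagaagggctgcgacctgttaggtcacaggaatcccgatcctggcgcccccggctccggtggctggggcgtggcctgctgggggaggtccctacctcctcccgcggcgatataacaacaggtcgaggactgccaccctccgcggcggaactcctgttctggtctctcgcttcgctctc
The windows are chr5:134946885-134947184 (minus strand) for Cldn4, chr7:29281928-29282227 (minus strand) for Spint2 and chr15:102027966-102028265 (plus strand) for Krt18. Cldn4 has 2 matches, 14 bases before and 11 after the start, Spint2 has 3, at 74, 55 and 9 bases before it, and Krt18 has 1, at 214 before it. A match describes letters and is not a bound site. The windows were chosen after the matches were seen. In all, 7 motifs were searched, and the shares of the other 6 are given for the higher genes, the lower genes and all genes in that order. GGGCGG stood in 68%, 81.8% and 49.9%, CCGGAA in 14.4%, 36.4% and 20.1%, and TATAAA in 6.7%, 0% and 12.1%. CAGCTG stood in 15.5%, 13.6% and 15.9%, TGAGTCA in 6.19%, 4.55% and 4.53%, and ACCGGTT in 3.09%, 0% and 1.22%. GGGCGG thus had a wider gap between the higher genes and all genes than CACCTG, and CAGCTG and TGAGTCA narrower ones. No test was made of these shares. Of the mesenchymal list, which holds Snai1, Snai2, Zeb1 and Zeb2, 0 of 27 members were called by limma unpaired, with 3 at an unadjusted p under 0.05. With pairing 2, Tnc and Mmp14, were higher, beside 6.27% of all genes. Differences of the repressors were 0.06, 0.19, 0.04 and 0.02, all below the centring shift of 0.2.

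**Figure D3:**
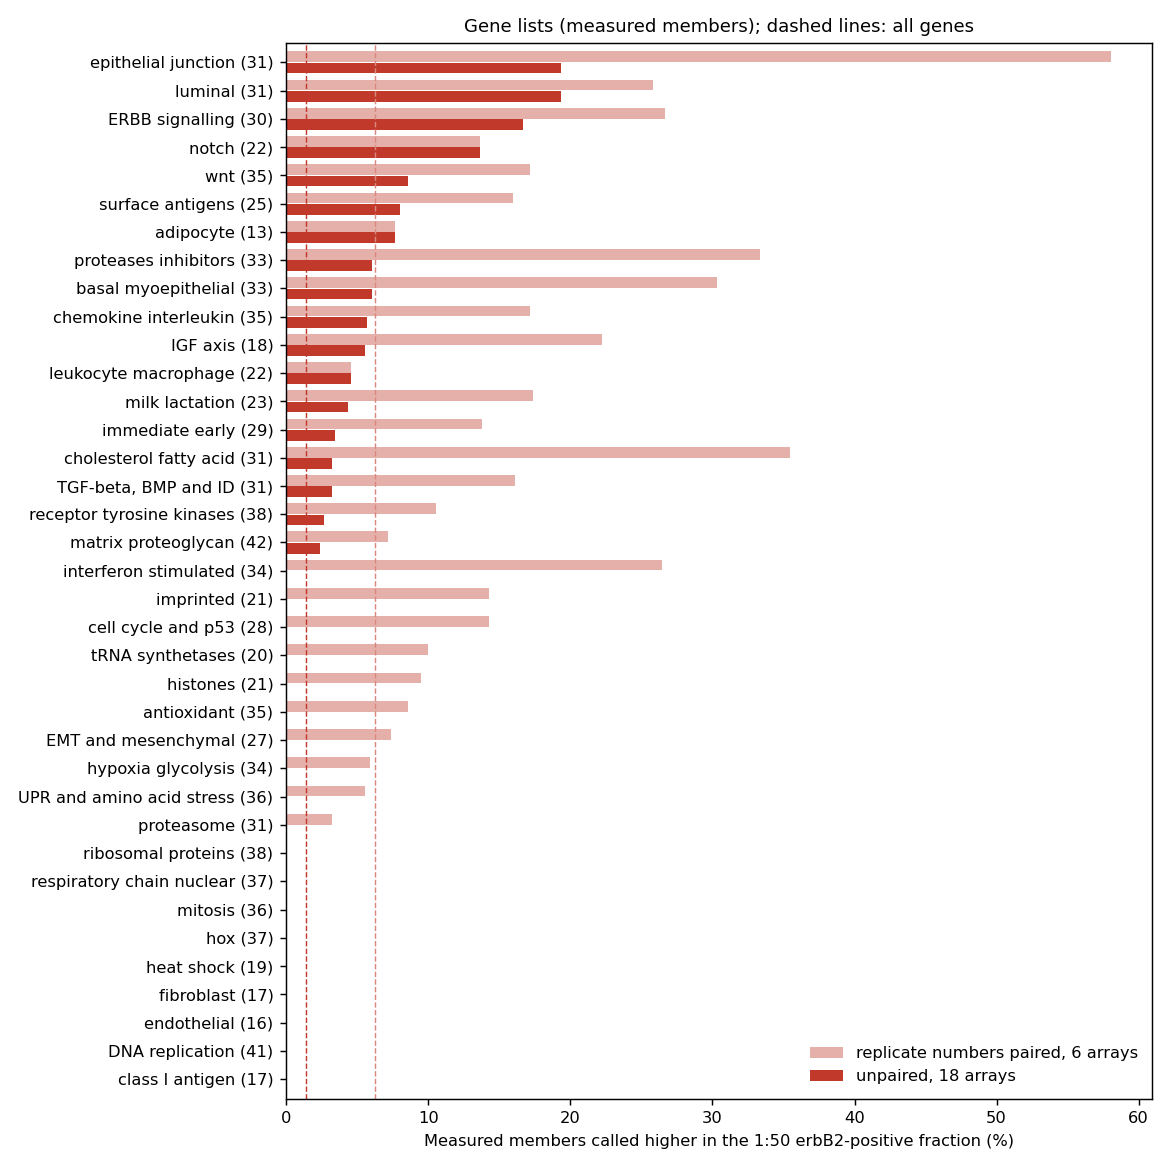
Share of the measured members of each gene list called higher in the 1:50 erbB2-positive fraction, unpaired over 18 arrays (dark bars) and paired by replicate number over 6 arrays (light bars), with dashed lines at the shares of all genes, 1.39% and 6.27%. Junction genes had 6 of 31 called unpaired, as luminal genes did, and 18 of 31 paired, the largest share of the lists in that fit.

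Of 30 genes of ErbB signalling, 5 were called higher and 0 lower, beside 1.39% and 0.115% of all genes. Their median difference was 0.01. Erbb2 itself measured 8.14, 8.16 and 8.36 in the 1:50 positive and 7.87, 7.79 and 7.74 in the 1:1 negative fraction. The arrays do not overlap and the higher values belong to the fraction sorted as positive, yet the difference was 0.43 (SE 0.10), 1.34-fold, with a limma adjusted p of 0.0382. It was lost under centring (0.22; limma adjusted p 0.46) and quantile normalization (0.25; 0.579), and without any 1 of 5 of the 6 arrays compared. Erbb2 was also lower in the sorted positive fraction of the 1:1 co-culture (7.87) than in the 1:50 negative fraction (8.27), by 0.40 (limma adjusted p 0.00141), a sign that turned to 0.57 higher under centring (0.00796) and 0.28 higher under quantile normalization (0.0649). On the deposited scale the MMTV-neu mean of 8.06 was not above the Comma-D mean of 8.20, but MMTV-neu was higher by 0.99 with centring (limma adjusted p 3.3e-05) and by 0.59 with quantile normalization (0.000472). The probe set is assigned to the mouse gene, and whether it reads the neu transgene was not tested.

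Erbb3 showed the clearer difference of the receptors. It measured 8.32, 8.86 and 8.99 against 7.45, 7.63 and 7.77, 1.11 apart (SE 0.17), 2.15-fold, with a limma adjusted p of 0.00524. The 1:50 positive mean lay 0.08 below Comma-D (limma adjusted p 0.827), while the 1:1 negative mean of 7.61 was next to those of the 1:1 positive fraction (7.65) and MMTV-neu (7.69) on the deposited scale. With centring MMTV-neu differed from Comma-D by 0.02 (limma adjusted p 0.897) and the 1:1 negative fraction by -0.76 (0.00705), so that closeness depends on the scaling. Egfr measured 8.48, 8.86 and 8.04 against 8.02, 8.06 and 7.76, with an overlap at 1 array, and its difference of 0.51 passed only with pairing (limma adjusted p 0.314 and 0.043). The adaptor Grb7, which docks on erbB2, rose by 0.48 (limma adjusted p 0.0262), and Cblb, a ubiquitin ligase of activated receptors, by 0.71 (0.0297).

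The MAP kinase phosphatases had differences of opposite sign. Dusp4, which acts in the nucleus, measured 8.0, 8.2 and 8.3 against 7.0, 7.0 and 7.7 and rose by 0.94 (SE 0.17; limma adjusted p 0.012). Dusp6, the cytoplasmic ERK phosphatase and a common readout of ERK activity, measured 8.49, 9.05 and 8.59 against 9.38, 9.35 and 9.26. Here the 1:50 positive arrays all lie lower, by 0.62 (SE 0.19; limma adjusted p 0.136 unpaired, 0.0307 paired). Dusp5 and the ligand Hbegf also fell with pairing, with differences of -0.48 and -0.43 (limma adjusted p 0.0446 and 0.0312). Errfi1, a feedback inhibitor of the receptors, differed by -0.13 (SE 0.13; limma adjusted p 0.659), and both fractions lay below Comma-D (-1.34 and -1.21; limma adjusted p 6.38e-06 and 1.25e-05). Centring made these -1.12 and -0.78 and quantile normalization -1.12 and -0.80, all still called.

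**Figure D4:**
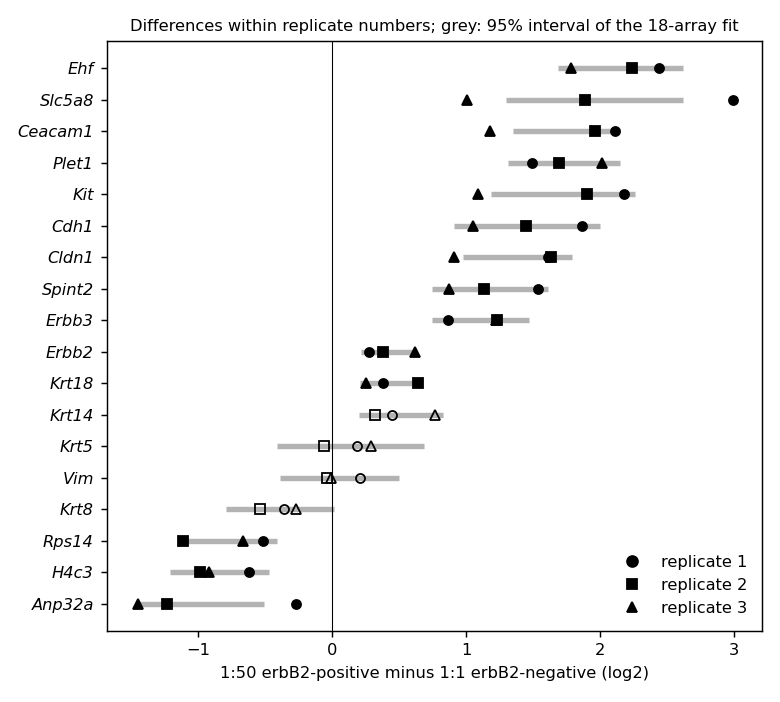
Difference between the fractions within each replicate number for 18 genes (symbols, filled where called by limma at an adjusted p under 0.05 in the unpaired fit) and the 95% interval of the 18-array fit (grey). For Ehf the 3 differences are 2.44, 2.24 and 1.78, and for H4c3 -0.62, -0.99 and -0.92. Krt5 and Vim have differences on both sides of 0.

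Of 33 basal markers, with a median difference of 0.15, 2 were called higher and 0 lower unpaired, beside 1.39% and 0.115% of all genes. These were keratin Krt6a (0.73, limma adjusted p 0.0268) and the hemidesmosomal integrin Itgb4 (0.76, limma adjusted p 0.0343). Pairing called 10 higher and 0 lower, beside 6.27% and 1.24% of all genes. Itgb4 measured 10.15, 10.78 and 10.48 against 9.56, 10.05 and 9.53, with no overlap. Krt14 measured 11.28, 11.64 and 11.56 against 10.83, 11.32 and 10.80, a difference of 0.51 that passed with pairing only (limma adjusted p 0.102 and 0.0352). Its groups overlap, by 1 array. Krt5 measured 11.14, 11.41 and 10.88 against 10.96, 11.47 and 10.59, and the difference of 0.14 (SE 0.26; limma adjusted p 0.817) is within the spread. It turned negative under centring (-0.06), quantile normalization (-0.05) and array weights (-0.44; limma adjusted p 0.0431). Vimentin, Vim, the mesenchymal intermediate filament, differed by 0.05 (SE 0.21; limma adjusted p 0.912), with a 95% interval from -0.39 to 0.50, although MMTV-neu differed from Comma-D by -4.80. The difference between the fractions is below the centring shift of 0.2, so its sign depends on the scaling.

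Signalling and metabolic lists followed in smaller counts, to be read beside 1.39% of all genes called higher unpaired and 6.27% with pairing. In the Notch list 3 of 22 were called higher and 0 lower, the receptors Notch1 and Notch2 and the fringe enzyme Rfng, by 0.74, 0.68 and 0.51 (limma adjusted p 0.0164, 0.0264 and 0.0359). Notch1 measured 9.05, 9.15 and 9.13 against 8.25, 8.45 and 8.38, without overlap. Of 35 Wnt genes 3 were higher and 0 lower: the receptor Fzd7 (0.97) and 2 antagonists, secreted Sfrp1 (1.11) and the Dishevelled-binding Nkd2 (1.64), with limma adjusted p-values of 0.0359, 0.0214 and 0.0359. Fatty acid and cholesterol synthesis had 1 of 31 called higher unpaired, fatty acid synthase Fasn (1.21; limma adjusted p 0.0304), and 11 with pairing, with 0 lower in both and a median of 0.41. The interferon-stimulated list had 0 of 34 called by limma unpaired, with 10 at an unadjusted p under 0.05, and 9 higher with pairing, led by Irf1 (1.22; limma adjusted p 0.0972 and 0.00914). Of 35 chemokine and interleukin genes, Il6 and Cxcl16 were called higher and 0 lower. Il6 measured 8.25, 8.08 and 7.58 against 6.99, 5.79 and 5.76, a difference of 1.79 (SE 0.30; limma adjusted p 0.00636).

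Further large differences were those of Slc5a8, a sodium-coupled monocarboxylate transporter (1.96, SE 0.31), Tc2n (1.94, SE 0.35), Rassf4, a Ras-association protein (1.46, SE 0.28), and Clmn (1.44, SE 0.25), with limma adjusted p-values of 0.00549, 0.012, 0.0145 and 0.00895. Slc5a8 measured 10.46, 10.54 and 9.90 against 7.47, 8.65 and 8.90. Its groups do not overlap, though its pair differences ranged from 1.00 to 2.99. By limma, lists with 0 called genes in both fits were heat shock (of 19), mitosis (of 36), DNA replication (of 41), nuclear respiratory chain (of 37) and class I antigen presentation (of 17). Their medians were 0.15, -0.06, -0.06, 0.19 and 0.09, and 0, 0, 1, 2 and 1 members had an unadjusted p under 0.05. At these sizes the fit could have missed smaller differences. Over all genes the median half-width of the 95% interval was 0.289 log2 units, and for 19210 genes (96.3%) the whole interval lay within 2-fold. Mitosis genes were less precise, with an SE from 0.174 (Espl1) to 0.581 (Mad2l1), so larger differences could have been missed there.

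Small non-coding RNA genes gave the largest single difference. Snora20, a box H/ACA RNA that guides pseudouridylation of ribosomal RNA, measured 7.89, 8.81 and 7.64 in the 1:50 positive and 5.18, 5.45 and 5.53 in the 1:1 negative fraction. The difference was 2.73 (SE 0.23), 6.63-fold, with a limma adjusted p of 2.12e-05. Its 1:50 positive mean exceeded Comma-D (6.02) by 2.10 (limma adjusted p 2.25e-05) and lay above the means of all 5 other groups, of which the highest was Comma-D. Snora44 measured 7.56, 8.50 and 7.31 against 6.53, 6.22 and 6.08, a difference of 1.51 (SE 0.30; limma adjusted p 0.0198), and was 1.34 above Comma-D (limma adjusted p 0.0143). Rnu3a, a copy of the U3 RNA of pre-ribosomal RNA cleavage, measured 8.41, 9.35 and 8.56 against 6.71, 7.08 and 6.90, 1.88 apart (SE 0.23; limma adjusted p 0.000596), and exceeded Comma-D by 0.83 (0.0405). Snora69, in contrast, rose by 1.11 (limma adjusted p 0.00524) to a level 0.01 below Comma-D. In each of Snora20, Snora44 and Rnu3a replicate 2 was the highest 1:50 positive array. U3 genes have near-identical copies, so the value of Rnu3a may hold signal of several.

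Mir140, the precursor gene of miR-140, was the microRNA gene named by size. It measured 6.69, 8.09 and 7.49 against 5.07, 6.59 and 6.53, a difference of 1.36 (SE 0.33; limma adjusted p 0.0488), with an overlap of no arrays and replicate 1 lowest in both groups. The call was lost under centring (1.16; limma adjusted p 0.0583), under quantile normalization (1.26; 0.145) and without the MMTV-neu arrays (0.0849). It was also lost without replicate 1 of the 1:1 negative fraction, where the difference was 0.86 (limma adjusted p 0.183), and without replicate 2 or 3 of the 1:50 positive fraction (0.352 and 0.179). The array probes the precursor locus and not the mature strands. The mature strand listed in RefSeq (GRCm38.p6, chr8:107551288-107551308, plus strand) is shown with its seed, bases 2 to 8, in capitals, as the part that pairs with targets.
mmu-miR-140-3p: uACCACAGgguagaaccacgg

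The 23 lower genes were smaller in size, none reaching 2-fold. H4c3, a histone H4 gene, measured 8.20, 7.50 and 7.80 in the 1:50 positive and 8.82, 8.49 and 8.72 in the 1:1 negative fraction, a difference of -0.84 (SE 0.18; limma adjusted p 0.0249). The groups do not overlap and the 1:1 negative values stand between Comma-D (7.50) and MMTV-neu (9.94). It was the 1 called member of 21 histone genes unpaired, beside 0.115% of all genes called lower. Pairing called 2 histone genes higher and 3 lower, beside 6.27% and 1.24% of all genes. Rps14, a protein of the small ribosomal subunit, measured 11.58, 10.69 and 10.97 against 12.10, 11.80 and 11.63 (-0.76, SE 0.17, limma adjusted p 0.028). Of 38 ribosomal protein genes it was the 1 called, unpaired and with pairing, beside the same all-gene shares. The histone chaperone Anp32a differed by -0.98 (SE 0.23; limma adjusted p 0.0359), with pair differences of -0.27, -1.23 and -1.45, so that number 1 shows little of it. The actin-binding Tmsb10 (-0.71), the ubiquitin-conjugating enzyme Ube2n (-0.70), the translation factor Eif3m (-0.67) and the translocon subunit Sec61b (-0.63) were called as well (limma adjusted p 0.0146, 0.0225, 0.0252 and 0.0439). Glutamine synthetase, Glul, measured 7.99, 7.83 and 7.60 against 8.60, 8.52 and 8.54 (-0.75, SE 0.14; limma adjusted p 0.0135). It lay 1.21 below Comma-D in the 1:50 positive fraction (limma adjusted p 4.69e-05), and 0.99 and 0.86 below under the scalings. Of 37 Hox genes, limma called 0 unpaired, with 6 at an unadjusted p under 0.05. Pairing called 4 lower, beside 1.24% of all genes, the largest being Hoxc10 (-0.90, limma adjusted p 0.0636 unpaired and 0.00724 paired).

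The same genes were then read in 2 comparisons that share no array with this one: the other diagonal, 1:1 positive minus 1:50 negative, and MMTV-neu minus Comma-D. In the other diagonal 256 of the 277 higher genes (92.4%) were called lower, 1 higher and 20 not called, beside 33.5% of all genes called lower and 80.1% called in either direction. In the lines, 229 of the 277 (82.7%) were lower in MMTV-neu, beside 30.4% of all genes, and 7 were higher. Of the 23 lower genes, 20 were higher in the other diagonal (46.6% of all genes) and 18 in MMTV-neu (56.4% of all genes). These shares depend on the scaling. Centring turned the other diagonal from 9287 higher and 6682 lower calls to 14433 and 2455, and the lines from 11254 and 6056 to 15391 and 2410. Of the 277 genes, 97 (35%) were then lower and 54 higher in the other diagonal, beside 12.3% lower and 72.4% higher of all genes, and 106 (38.3%) lower and 98 higher in the lines, beside 12.1% lower and 77.2% higher of all genes. Quantile normalization gave 178 lower (64.3%, beside 26% of all genes) and 17 higher in the other diagonal and 173 lower (62.5%, beside 27.9%) and 48 higher in the lines. Across all 19938 genes, which are not independent, Pearson's r was -0.744 with the other diagonal and -0.691 with the lines, as a description.

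On the deposited scale few genes went the other way. Shank2, a postsynaptic scaffold protein, was the 1 gene called higher in both diagonals, measuring 8.84, 8.92 and 9.10 against 8.59, 8.34 and 8.32 here (0.54, SE 0.11; limma adjusted p 0.0225) and differing by 0.40 in the other (0.00323; 1.37 with centring). Olfml3, a secreted olfactomedin-like protein, was the 1 gene called lower in both. It measured 7.94, 8.11 and 7.81 against 8.97, 8.70 and 8.36 (-0.72, SE 0.14; limma adjusted p 0.0185) and differed by -1.29 in the other diagonal (1.15e-06). Neither call here held under centring or quantile normalization, and the other diagonal of Olfml3 fell to -0.32 (limma adjusted p 0.194) with centring. By construction the difference is the sum of a label component, the mean of the positive minus the mean of the negative fractions, and a ratio component, the mean of the 1:50 minus the mean of the 1:1 fractions. For Shank2 these were 0.47 (limma adjusted p 0.000441) and 0.07 (0.43), and for Olfml3 -1.01 (2.56e-05) and 0.28 (0.0185). Both ratio components turned with the scaling: for Shank2 it was -0.52 with centring (limma adjusted p 0.00177) and -0.51 with quantile normalization (0.00108), and for Olfml3 -0.30 (0.0907) and -0.02 (0.907). For Ehf they were -0.09 (0.613) and 2.25 (1.74e-07), and for Erbb3 0.00 (0.987) and 1.10 (2.35e-06). Centring gave Erbb3 a label component of 0.39 (limma adjusted p 0.00859) and a ratio component of 0.52 (0.000571), and Erbb2 0.40 (0.0112) and -0.17 (0.238). Over the 277 higher genes, 275 had a ratio component called higher, beside 32.3% of all genes, while the label component was called higher in 16, lower in 89 and not called in 172, beside 28.9% of all genes higher, 24.4% lower and 53.3% in either direction. With centring 159 (57.4%) had a ratio component called higher, beside 11.2% of all genes, and the label component was called higher in 115 (41.5%) and lower in 8 (2.89%), beside 65.3% and 7.81% of all genes. The components share arrays with the difference itself and split it without supporting it.

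**Figure D5:**
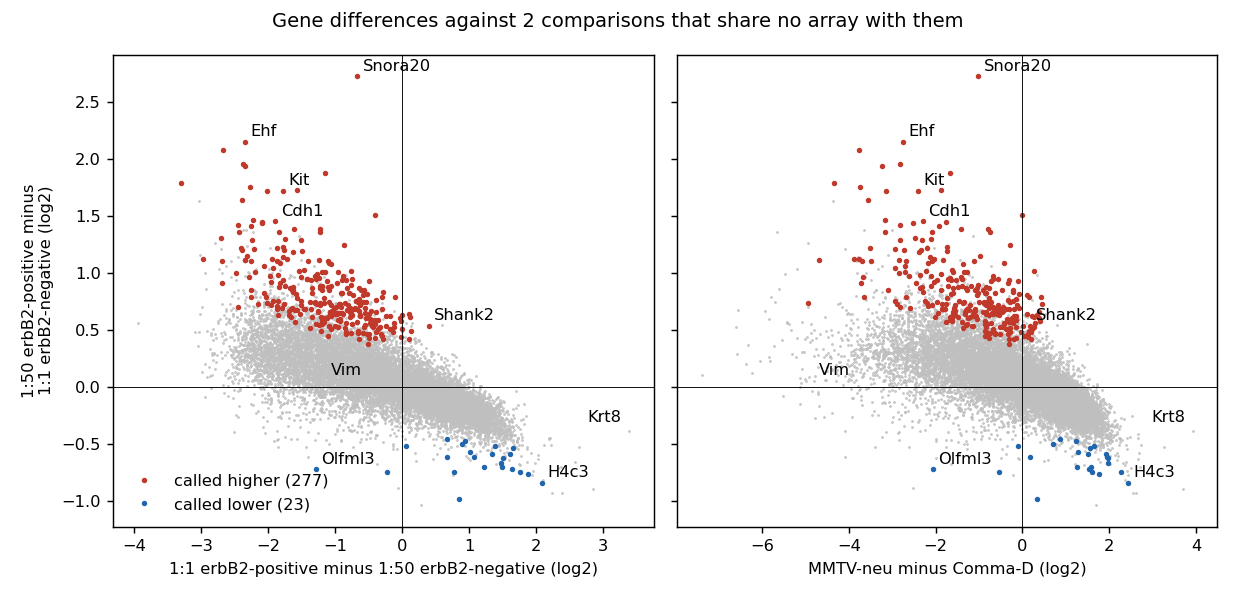
Difference of each gene between the 1:50 positive and 1:1 negative fractions (y, log2) against the other diagonal (left) and the unmixed lines (right), in log2 units, for 19938 genes, with the 277 called higher in red and the 23 called lower in blue. Red points lie mainly at the left of both panels and blue points at the right, and Shank2 and Olfml3 lie on the other side in the left panel.

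The 277 higher genes lay near Comma-D in the 1:50 positive fraction, with a median of -0.04, and below it in the 1:1 negative fraction, with a median of -0.79. These values describe the called genes and have no test. A closer reading of single genes used their own position between the lines, again for the 1641 genes that separate them. The median gene lay at 27.4% in the 1:1 negative fraction (quartiles 19.3% and 37.5%) and at 14.6% in the 1:50 positive fraction. In the 1:1 negative fraction 26 genes (1.58%) had reached at least 75% of the way to MMTV-neu, and in the 1:50 positive fraction 15 (0.914%). They were picked by these values, which are given as a description: 11 genes had reached 75% in both fractions, 15 in the 1:1 negative and 4 in the 1:50 positive fraction alone. A gap between the fractions is built into the choice of the 15, so calls among them are no support. Of these 15, limma called 11 higher in the 1:50 positive fraction, beside 1.39% of all genes. They include Kit (107% in the 1:1 negative and 35.2% in the 1:50 positive fraction), Ehf (90.5% and 12.3%), Cd14 (89% and 37.7%), Tc2n (82.8% and 22.9%) and Ceacam1 (79.9% and 33%). The positions form a range without a break, and others of the 15 lay between, such as the inhibin subunit gene Inhbb (95.1% and 48.6%), the sodium pump subunit gene Atp1b1 (84.2% and 55.8%) and Dio2, a deiodinase of thyroid hormone (79.4% and 73.9%). Among the 11 were the proteoglycan decorin, Dcn (120% and 126%), the growth factor Igf2 (114% and 127%), Krt8 (85.2% and 75.3%) and the immediate early gene Fos (76.3% and 83.2%), without a limma call (adjusted p 0.642, 0.349, 0.401 and 0.706). The 4 of the 1:50 positive fraction were F13a1 (71.5% and 107%), Mir145a (62.2% and 79.1%), Rny1 (72.1% and 78.4%) and Grk5 (45.5% and 76.7%), again without a call (adjusted p 0.537, 0.412, 0.781 and 0.0665). Positions of single genes move with the scaling. Centring placed Ehf at 128% and 7.14% and Kit at 170% and 49.2%, and quantile normalization at 96.9% and 5.63% and at 96.2% and 24%, while Krt8 fell under 75% in both fractions with either.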

How the data were processed

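RNA of 18 samples in 6 groups of 3 had been hybridised to mouse whole-transcript gene arrays, and the table holds 35556 probe sets, with 0 columns of other samples. The authors deposited log2 values made with RMA and list R 3.1.2 and limma among the tools, per the submitters' processing notes. For the summarisation level and any filter, these sources are silent. No depth exists for arrays, and precision is set by how many there are. Groups and replicate numbers came from the titles.

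A single gene is given for 21789 probe sets, several for 1621 (left out) and none for 12146, and 21698 of the single-gene ones were found in the RefSeq table, with 0 changes of symbol. The probe set with the highest mean over 18 arrays stood for each of 19938 genes, with no filter on low values. All 18 arrays entered 1 limma 3.58.1 fit in R 4.3.3 (lmFit, eBayes, 12 residual degrees of freedom), two-sided, with Benjamini-Hochberg adjustment over all genes and a threshold of 0.05. The script was tested on simulated data. Other fits paired the 6 arrays, or the 12 co-culture arrays, by replicate number. Deviations from the group means of same-numbered arrays of the 2 fractions correlated across genes by 0.849, 0.646 and 0.57 for numbers 1, 2 and 3, which is where the pairing comes from, since the labels state none. Replicate 3 of the 1:1 negative fraction correlated slightly better, at 0.586, with another number.

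As alternatives, arrays were centred on 7 reference genes, quantile-normalized or weighted, each was left out in turn, the MMTV-neu arrays or all but the 6 compared were left out, the 40% of genes lowest in mean were dropped, probe sets were averaged, priors were made robust with a trend, and thresholds were raised. Leaving out a replicate number in both groups was added after the data were seen.

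Named genes are the 15 called genes with the largest difference each way whose arrays do not overlap, the 8 each way called with the same or the opposite sign in the other diagonal, the 6 each way opposing the lines, the 4 largest small RNA genes, the 4 largest members of each of 37 lists, and Erbb2, Erbb3, Egfr, Errfi1, Cdh1, Vim, Krt8, Krt18, Krt14 and Krt5. Provisional symbols were passed over. Krt7, Cldn4, Marveld3, Dsg2, Ctnnb1, Grb7, Jup, Dsp, Esrp1, Esrp2, Foxa1, Esr1, Elf5, Aldh1a3, Prom1, Krt19, Dusp5, Hbegf, Espl1, Mad2l1 and the mesenchymal repressors fall outside this rule or were chosen after their values were seen. The comparison, the members and the lists were chosen with earlier results of these data known.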

Additional observations from a re-analysis of the deposited data

How the results depend on the processing

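The 300 calls changed widely with the settings. They became 7175 with array weights, which gave replicate 2 of the 1:1 negative fraction 9.92 and its replicate 1 0.151, 43 with centring on reference genes, 86 with quantile normalization, 604 and 1499 with a replicate block over 12 and 6 arrays, 0 in the unpaired fit of the 6 arrays, 51 at an adjusted p under 0.01 and 63 at 2-fold. Leaving out 1 array gave 36 to 900. Added after the data were seen, leaving out a replicate number in both groups gave 15 to 405. The filter, probe set means, other priors and the fit without MMTV-neu gave 236 to 372. The cause was not tested.

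The other comparisons moved as follows. Leaving out the lowest 40% of genes, so that fewer were tested, gave 9730 for the other diagonal (15969 in all), 9321 for the ratio component (14950) and 9895 for the lines (17310). At 2-fold these were 5282, 1660 and 7507, and 275 for the label component (10621). Quantile normalization gave 6288 for the label and 9481 for the ratio component, and an adjusted p under 0.01 gave 6270 for the label component. Centring turned the split of higher and lower calls of the label component from 5759 and 4862 to 13023 and 1558, and of the ratio component from 6433 and 8517 to 2228 and 14005.

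The axis difference of -11.7 points kept its sign in each alternative, from -3.64 to -20.9. Of 58 named calls, 21 held with centring, 22 with quantile normalization, 58 with the replicate block of 6 arrays and 10 without replicate 2 of the 1:50 positive fraction. Krt5 reversed with array weights, from 0.14 to -0.44.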
